A study of Mus musculus with 8 samples.

Results

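The 34 genes described here carry glucose into muscle, run glycolysis, build and break glycogen, and admit pyruvate to the mitochondrion. They were chosen by symbol from a table of 48328 Ensembl genes, matched through GENCODE M21. They comprise 2 glucose transporters, 9 genes of glucose phosphorylation and upper glycolysis, 8 of lower glycolysis, 3 of lactate and redox handling, 3 of glycogen breakdown, 6 of glycogen synthesis and 3 of pyruvate entry. All 34 were in the table and had at least 1 FPKM in each of the 8 libraries, so none entered the test through only 1 genotype. No difference in any of the 34 between K320E-skm and wild-type muscle passed the threshold over all genes.

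In resting and working fibres, glucose enters through GLUT1 and the insulin- and contraction-responsive GLUT4, is phosphorylated by hexokinase and is then split to pyruvate or stored as glycogen. Fast fibres, which dominate the tibialis anterior of the lower hindlimb, hold much glycogen and glycolytic enzyme and can contract with little oxygen. Many steps exist as a muscle-enriched form and as a form found in most tissues, for example PGAM2 and PGAM1 or beta-enolase and alpha-enolase. Pyruvate dehydrogenase kinases help set how much pyruvate is oxidised in mitochondria and how much leaves as lactate.

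Total RNA was sequenced from the lower part of the tibialis anterior of 4 K320E-skm and 4 wild-type mice, all C57BL/6J and 24 months old, with 2 libraries labelled male and 2 labelled female in each genotype. In K320E-skm mice the skeletal muscle expresses dominant mutant Twinkle, a helicase that unwinds mitochondrial DNA for copying and is encoded by Twnk. The promoter or Cre that drives it is not given in the sources used here. Values are FPKM, fragments scaled by transcript length and by the mapped fragments of the library, so levels can be compared between genes.

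Twnk itself was at 3.82 to 5.06 FPKM in K320E-skm libraries, against 2.16 to 2.70 FPKM in wild-type libraries, without overlap. The library K320E-skm 4 was labelled male but had 10.2 FPKM of Xist and a sum of 0.0935 FPKM over 4 Y-linked genes, so 1 of 8 libraries went against its sex label. The 2 mitochondrial ribosomal RNAs made up 41.5 to 46.9% of the summed FPKM in K320E-skm libraries, against 31.2 to 37.5% in wild-type libraries, without overlap. FPKM are relative to all mapped fragments. The median log2 fold change over all 10521 tested genes was −0.14 on the deposited scale. Median-ratio rescaling, which divides each library by the median ratio of its genes to their averages, brought that median to 0.00. Wild-type 1 held the highest of the 8 values for 58.2% of tested genes. The 4 muscle fibre markers used to check the tissue label summed to 14930 to 17455 FPKM in K320E-skm libraries, against 18307 to 19918 FPKM in wild-type libraries. Of these 4, only Tnnt3 was lower without overlap, at 6848 to 8307 FPKM in K320E-skm libraries, against 9410 to 10397 FPKM in wild-type libraries. Tnnt3 is also counted among the fast fibre markers, while Ckm, Des and Mb overlapped between the genotypes. Summed FPKM of fast fibre markers ran from 26959 to 37390 in K320E-skm and from 36180 to 42460 in wild-type libraries. Of the 10 markers, 4 were lower without overlap, where 9.59% of all tested genes were. The means of 2 of the 10, Myh1 and Myh2, were higher in K320E-skm libraries, with overlap. The fastest fibres are marked by Myh4, which is listed at 0 for 3 K320E-skm libraries (2, 3 and 4) and 1 wild-type library (4). Without Myh4, left out after its values were seen, the other 9 fast fibre markers summed to 26959 to 34425 FPKM in K320E-skm libraries, against 36116 to 38923 FPKM in wild-type libraries, without overlap. The part of the ribosomal RNA share and of the fast fibre markers in the results below was not tested.

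**Figure D1:**
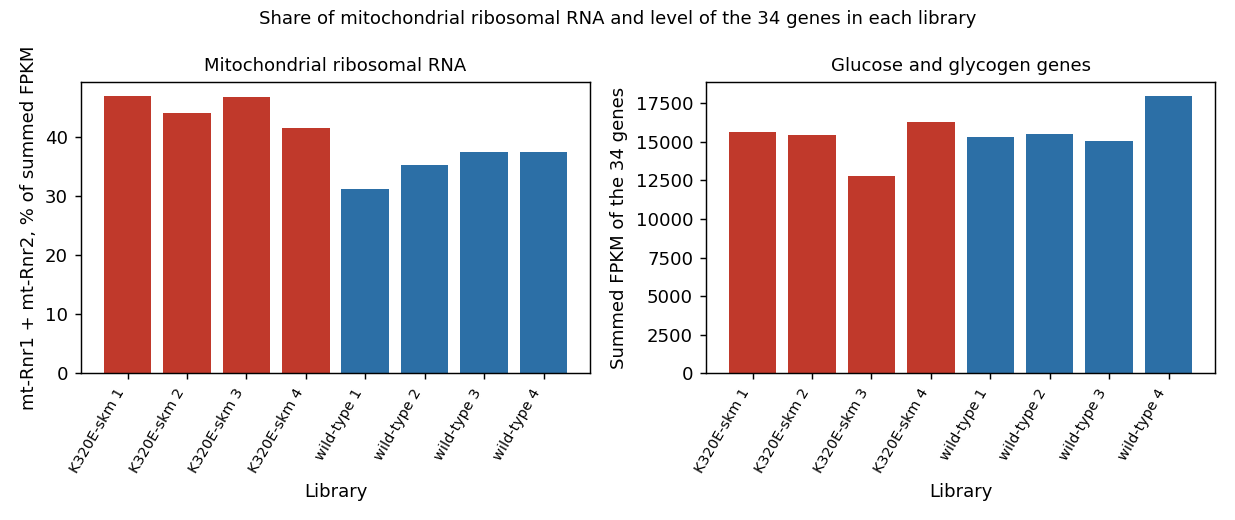
The left bars give mt-Rnr1 and mt-Rnr2 together as a percentage of the summed FPKM of each library, and the right bars the summed FPKM of the 34 genes, with K320E-skm libraries in red and wild-type libraries in blue. The ribosomal RNA share lies at 41.5 to 46.9% in K320E-skm libraries, against 31.2 to 37.5% in wild-type libraries, while the summed level of the 34 genes overlaps between the genotypes.

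The 34 genes together summed to 15603, 15414, 12805 and 16285 FPKM in K320E-skm 1 to 4, against 15287, 15486, 15041 and 17947 FPKM in wild-type 1 to 4. K320E-skm 3 was lowest, wild-type 4 highest, and the other libraries of both genotypes lay close together. Of all 10521 tested genes, Aldoa ranked 17 by mean FPKM, Gapdh 35 and Eno3 49. At the other end, Pgam1 ranked 5613, Hk1 8535 and Slc2a1 8932. The values differed between libraries within a genotype: K320E-skm 3 held the lowest of the 8 values for 15 of the 34 genes, where it held the lowest for 22% of tested genes. Wild-type 1 held the highest for 14 of the 34, where it held the highest for 58.2% of tested genes.

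**Figure D2:**
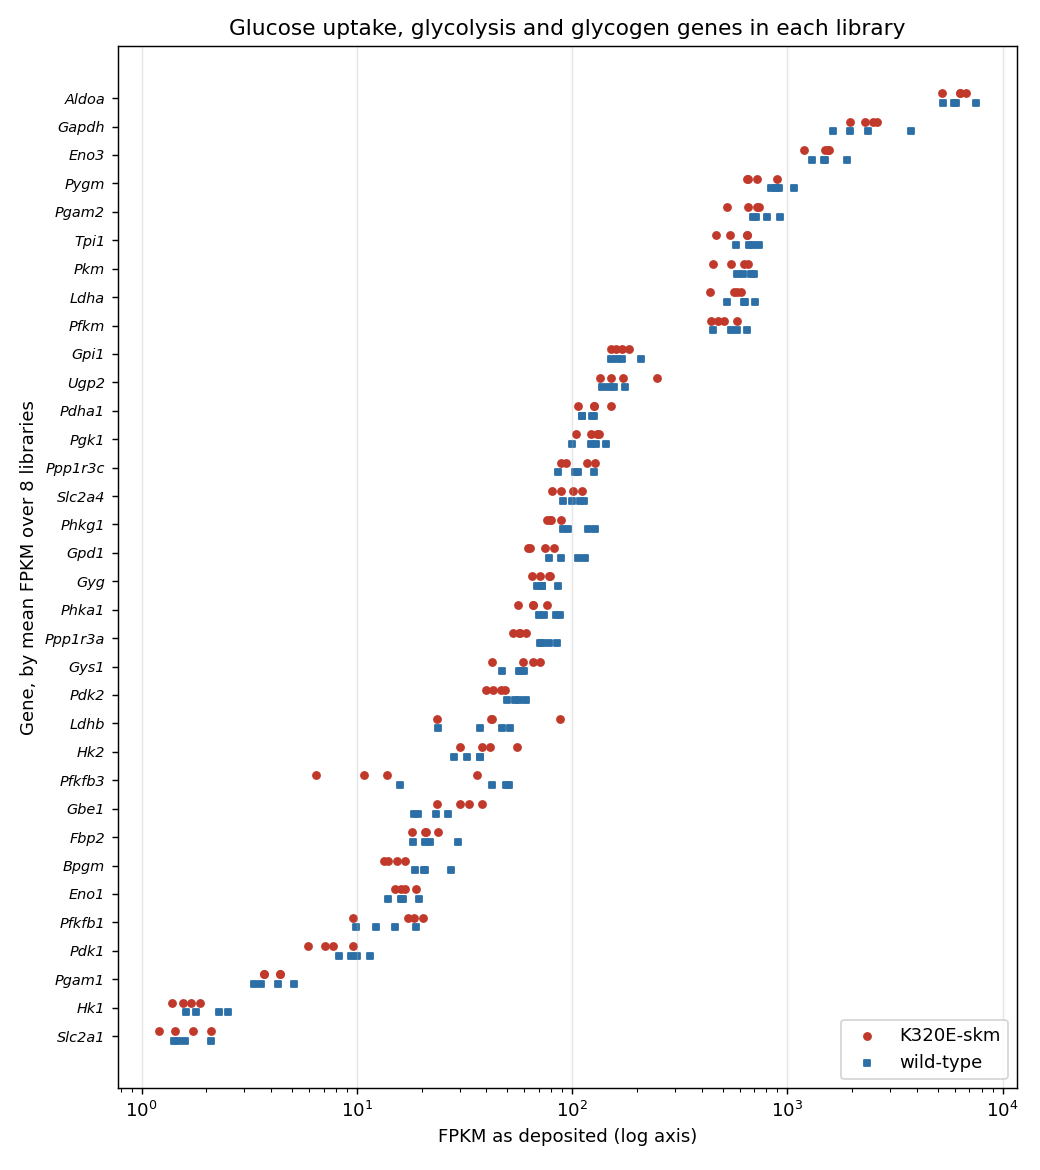
Each row is a gene, ordered by its mean over 8 libraries, with FPKM on a log axis, K320E-skm libraries as red circles above and wild-type libraries as blue squares below. Levels span from 1.2 FPKM of Slc2a1 to 7525 FPKM of Aldoa, and in most rows the colours overlap.

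The comparison of K320E-skm with wild-type muscle asked whether fuel genes of glucose differ in old muscle that carries the mutant helicase. With limma over all 10521 genes, 0 of the 34 had an adjusted p under 0.05, where 0.019% of all tested genes did, and adjusted p of the 34 ran from 0.31 to 0.998. At an unadjusted p under 0.05, limma gave 7 of the 34, or 20.6%, against a background of 13.1% of all genes. Lower in K320E-skm muscle were 6 of the 34 (17.6%, background 12%), and 1 of the 34 was higher (2.94%, background 1.12%). In each direction 0.0095% of all genes passed the adjusted threshold, on both scales. In bulk muscle, fewer cells of a type and less RNA per cell cannot be told apart. The median log2 fold change of the 34 was −0.09 beside −0.14 over all tested genes, and 19 of the 34 lay above the median gene. By role, the median ran from −0.35 in glycogen breakdown to 0.04 in glycogen synthesis, or from −0.17 to 0.22 in the same roles after rescaling. Across the 34, 10 log2 fold changes were above 0 and 24 below as deposited, while 20 were above 0 and 14 below after rescaling, so 10 of the 34 changed sign with the scaling. After rescaling, 5 of the 34 (14.7%, background 9.89%) had an unadjusted p under 0.05 by limma, 2 higher (background 5.09%) and 3 lower (background 4.8%), and again 0 passed.

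**Figure D3:**
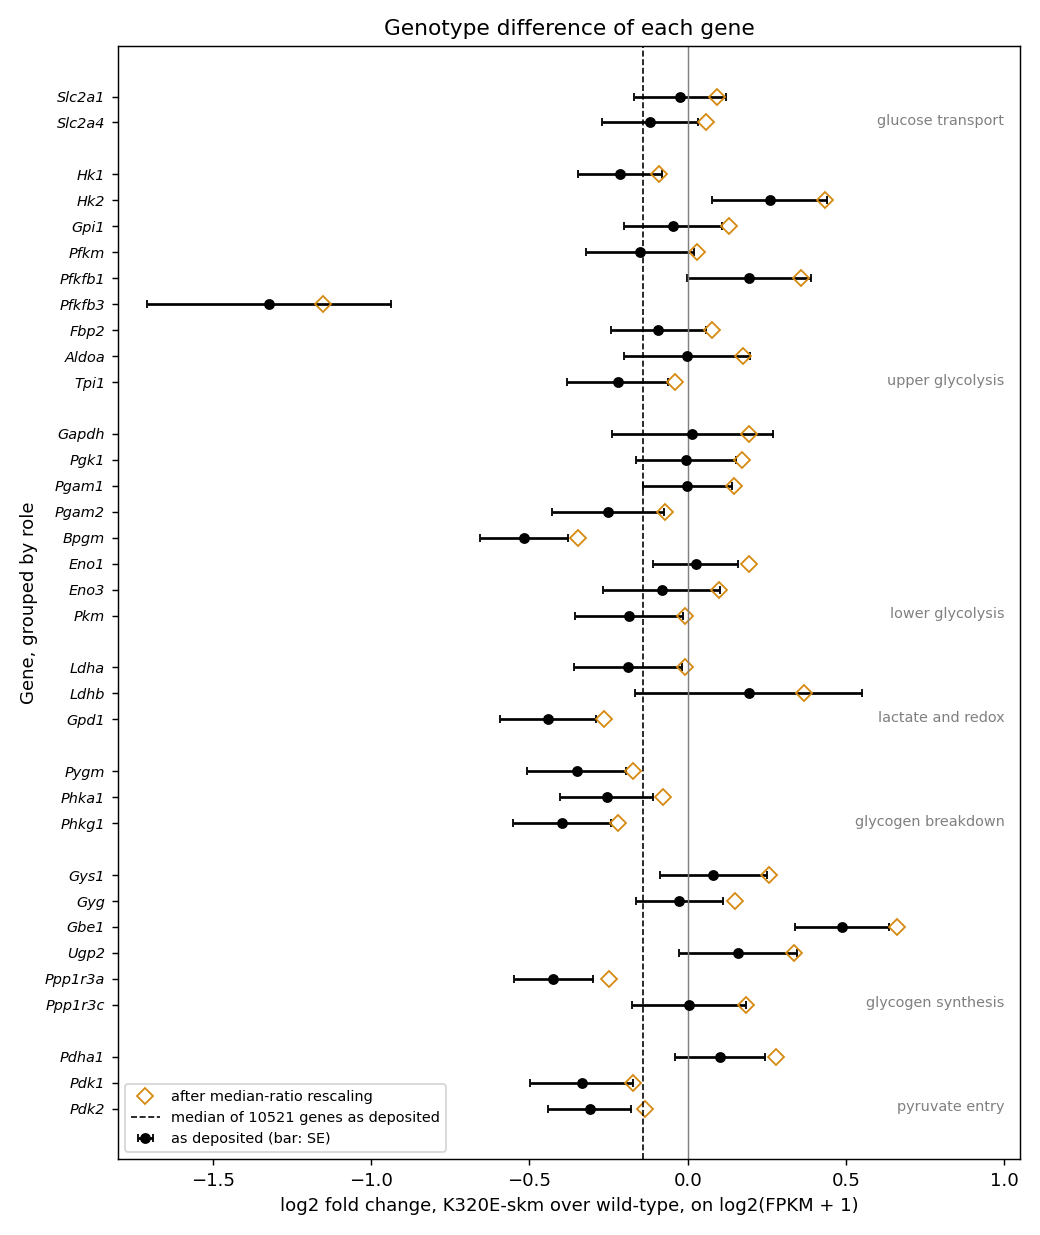
Black points are log2 fold changes of K320E-skm over wild-type muscle on the scale of log2(FPKM + 1) with their standard errors, and open orange diamonds are the same differences after median-ratio rescaling, with genes grouped by role from top to bottom. The dashed line is the median of all tested genes at −0.14, and Pfkfb3 at −1.32 stands furthest from it.

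Slc2a4, which encodes GLUT4, was the main glucose transporter transcript. It had 88.9, 111, 80.9 and 101 FPKM in K320E-skm 1 to 4, against 113, 91.2, 99.6 and 109 FPKM in wild-type 1 to 4. The genotypes overlapped, with a log2 fold change of −0.12 and a 95% confidence interval from −0.46 to 0.22. Slc2a1, which encodes the basal transporter GLUT1, was at 2.09, 1.43, 1.73 and 1.20 FPKM in K320E-skm, against 2.1, 1.59, 1.42 and 1.48 FPKM in wild-type libraries, again with overlap. GLUT1 is also made by endothelial and nerve sheath cells. Summed endothelial markers were at 30.1 to 40.4 FPKM in K320E-skm libraries, against 35.8 to 47.7 FPKM in wild-type libraries, with 0 of 5 markers apart. Summed Schwann cell markers were at 12.0 to 16.5 FPKM in K320E-skm libraries, against 14.9 to 29.9 FPKM in wild-type libraries, with 1 of 5 lower without overlap, and the part of these cells in the Slc2a1 values was not tested. Slc2a4 made up 97.7 to 98.8% of the summed pair in K320E-skm and 98.2 to 98.7% in wild-type muscle.

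Among upper glycolysis genes, Pfkfb3 showed the widest difference. It encodes a bifunctional enzyme that makes fructose 2,6-bisphosphate, the activator of phosphofructokinase (ENSMUSG00000026773, GRCm38 chromosome 2, 11471433 to 11554077). It had 36.3, 10.8, 6.47 and 13.8 FPKM in K320E-skm 1 to 4, against 50.8, 15.8, 42.4 and 49.3 FPKM in wild-type 1 to 4. K320E-skm 1 lay among the wild-type libraries and wild-type 2 among the K320E-skm libraries, so the genotypes overlapped. On average, K320E-skm libraries had 16.9 ± 13.3 FPKM and wild-type libraries 39.6 ± 16.3 FPKM (SD, n = 4 each), a ratio of 0.426 (exact two-sided permutation p = 0.0571, where 0.0286 is the smallest that 4 against 4 allows). The log2 fold change was −1.32 (SE 0.39), or −1.18 relative to the median gene, with a limma adjusted p of 0.31. The 3 libraries with Y-linked transcripts, K320E-skm 1 and wild-type 1 and 3, had 36.3, 50.8 and 42.4 FPKM. Among the libraries with Xist, K320E-skm 2, 3 and 4 had 6.47 to 13.8 FPKM, wild-type 2 had 15.8 and wild-type 4 had 49.3 FPKM. This split by transcripts was not planned and was not tested. The unadjusted limma p was 0.00705 with the sex label as a term, which enters K320E-skm 4 as male, and 0.0223 without that term. Without K320E-skm 4 the log2 fold change was −1.12. Without wild-type 4 it was −0.94. Another gene annotated on the same strand overlaps its locus.

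Pfkfb1, a related bifunctional enzyme of muscle and liver, was at 9.55, 17.2, 20.2 and 18.5 FPKM in K320E-skm, against 9.95, 15.1, 12.3 and 18.8 FPKM in wild-type libraries. Its lowest values were in K320E-skm 1 and wild-type 1, and the genotypes overlapped. The hexokinases differed in level: Hk2, the insulin-responsive muscle form, was at 30.2, 55.4, 41.7 and 38.2 FPKM in K320E-skm, against 37.3, 28.4, 32.4 and 37.3 FPKM in wild-type libraries. Values of K320E-skm 2 to 4 exceeded every wild-type value and that of K320E-skm 1 did not (log2 fold change 0.26, SE 0.18). After rescaling the value was 0.43 (SE 0.15), with an unadjusted limma p of 0.0201 and an adjusted p of 0.411. Hk1, the form of most tissues, was at 1.86, 1.38, 1.69 and 1.55 FPKM in K320E-skm, against 2.53, 2.28, 1.79 and 1.61 FPKM in wild-type libraries, with overlap.

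Aldoa, the muscle aldolase and the most abundant of the 34 transcripts, had 6326, 6368, 5260 and 6736 FPKM in K320E-skm 1 to 4, against 5954, 5268, 6105 and 7525 FPKM in wild-type 1 to 4. Tpi1, the triosephosphate isomerase, was at 648, 542, 467 and 652 FPKM in K320E-skm, against 693, 579, 667 and 737 FPKM in wild-type libraries. Both overlapped, with log2 fold changes of −0.00 (95% confidence interval −0.45 to 0.44) for Aldoa and −0.22 (−0.58 to 0.14) for Tpi1. The glucose 6-phosphate isomerase Gpi1, the muscle phosphofructokinase Pfkm and the muscle fructose bisphosphatase Fbp2 also overlapped. Pfkm, which sets the pace of glycolysis, had a mean of 501 ± 60.1 FPKM in the K320E-skm group, against 558 ± 82.2 FPKM in the wild-type group (SD, n = 4 each). Gpi1 had a mean of 166 ± 14.1 FPKM in the K320E-skm group, against 173 ± 25.2 FPKM in the wild-type group. Fbp2, which runs the reverse step, had a mean of 20.9 ± 2.43 FPKM in the K320E-skm group, against 22.6 ± 4.91 FPKM in the wild-type group.

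In lower glycolysis, Bpgm stood apart from the abundant enzymes. It encodes bisphosphoglycerate mutase, which diverts a glycolytic intermediate to 2,3-bisphosphoglycerate (ENSMUSG00000038871, chromosome 6, 34476207 to 34505613). It had 15.4, 13.9, 13.3 and 16.7 FPKM in K320E-skm 1 to 4, against 27.3, 20.6, 18.6 and 20.7 FPKM in wild-type 1 to 4. All K320E-skm libraries lay below all wild-type libraries, as deposited and after rescaling. The K320E-skm mean was 14.8 ± 1.53 FPKM and the wild-type mean 21.8 ± 3.79 FPKM (SD, n = 4 each, exact two-sided permutation p = 0.0286), a ratio of 0.681 as deposited and 0.779 after rescaling. The log2 fold change was −0.52 (SE 0.14), or −0.38 relative to the median gene, with a limma adjusted p of 0.31. Without K320E-skm 4 it was −0.55, and without wild-type 1 it was −0.42. Red cells also use this enzyme: summed red cell markers were at 133 to 279 FPKM in K320E-skm libraries, against 222 to 370 FPKM in wild-type libraries, with 0 of 6 markers apart. The red cell marker Slc4a1 was under 1 FPKM in every library, and the part of blood in the Bpgm difference was not tested. In all, 4 of the 34 genes did not overlap between the genotypes as deposited, all of them lower in K320E-skm muscle (11.8%, background 9.92% in either direction and 9.59% lower and 0.333% higher). After rescaling 2 did not overlap, Bpgm and Ppp1r3a (background 5.96%, 2.85% higher and 3.11% lower). These shares were close to the background.

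The abundant enzymes of lower glycolysis overlapped. Gapdh was at 2504, 2295, 1960 and 2620 FPKM in K320E-skm, against 1639, 3736, 1950 and 2375 FPKM in wild-type libraries, where wild-type 1 and 2 were the lowest and highest of all 8. Its log2 fold change of 0.01 had a 95% confidence interval from −0.56 to 0.59. Gapdh has many processed pseudogenes in the mouse, so the division of its fragments is uncertain. Eno3, the muscle beta-enolase, was at 1550, 1493, 1198 and 1559 FPKM in K320E-skm, against 1478, 1305, 1490 and 1888 FPKM in wild-type libraries. Eno1, the alpha-enolase of most tissues, was at 18.9, 16.8, 16 and 15.1 FPKM in K320E-skm, against 19.5, 16.4, 16 and 13.9 FPKM in wild-type libraries. Both enolases overlapped. The phosphoglycerate kinase Pgk1 had a mean of 122 ± 13.0 FPKM in the K320E-skm group, against 123 ± 18.0 FPKM in the wild-type group. The pyruvate kinase Pkm had a mean of 571 ± 91.3 FPKM in the K320E-skm group, against 645 ± 50.2 FPKM in the wild-type group (SD, n = 4 each).

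Phosphoglycerate mutase is made by Pgam2 in muscle and Pgam1 elsewhere. Pgam2 had 655, 724, 525 and 740 FPKM in K320E-skm 1 to 4, against 926, 715, 691 and 808 FPKM in wild-type 1 to 4. Pgam1 was at 4.40, 4.40, 3.69 and 3.70 FPKM in K320E-skm, against 5.08, 4.32, 3.33 and 3.60 FPKM in wild-type libraries. The genotypes overlapped for both, and the level of Pgam2 was far above that of Pgam1 in every library. The 250 bases before the RefSeq start of each gene (GRCm38.p6) are shown because these 2 isoforms differ so widely in level. Capitals mark CANNTG, the E-box read by myogenic factors such as MyoD, and ACGTG or GCGTG, core letters of the hypoxia response element, on either strand. Pgam2 lies at chr11:5803797-5804046 on the minus strand and Pgam1 at chr19:41911621-41911870 on the plus strand.
Pgam2: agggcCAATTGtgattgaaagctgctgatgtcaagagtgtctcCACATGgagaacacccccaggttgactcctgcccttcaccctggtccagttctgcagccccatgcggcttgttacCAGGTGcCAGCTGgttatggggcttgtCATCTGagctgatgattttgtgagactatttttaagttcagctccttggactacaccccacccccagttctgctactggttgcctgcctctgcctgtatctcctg
Pgam1: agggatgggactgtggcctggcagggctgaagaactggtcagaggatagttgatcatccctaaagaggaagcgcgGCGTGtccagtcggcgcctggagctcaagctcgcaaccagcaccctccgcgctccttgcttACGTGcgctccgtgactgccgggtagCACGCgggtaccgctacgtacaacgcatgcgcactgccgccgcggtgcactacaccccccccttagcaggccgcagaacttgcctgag
The Pgam2 stretch held 5 matches to CANNTG, none to ACGTG or GCGTG, and 1 CG pair. The Pgam1 stretch held 0 matches to CANNTG, 1 to ACGTG, 2 to GCGTG, and 22 CG pairs. A match is a run of letters and not a shown site of binding.

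The 250 bases before the RefSeq start of Bpgm (chr6:34476106-34476355, plus strand, GRCm38.p6) are shown because Bpgm was lower without overlap. They held 0 matches to the 3 motifs and 14 CG pairs. In GENCODE M21 the gene starts at 34476207, so the later part of this stretch lies within the annotated gene.
Bpgm: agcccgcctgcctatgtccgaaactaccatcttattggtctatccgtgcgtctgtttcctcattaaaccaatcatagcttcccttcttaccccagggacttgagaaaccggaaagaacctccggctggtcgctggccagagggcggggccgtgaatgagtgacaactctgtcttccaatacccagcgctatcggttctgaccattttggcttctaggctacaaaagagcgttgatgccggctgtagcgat

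Of the genes of lactate and redox handling, Ldha, the lactate dehydrogenase subunit of fast muscle, was at 582, 607, 439 and 568 FPKM in K320E-skm, against 630, 523, 634 and 711 FPKM in wild-type libraries. Ldhb, the subunit of heart and oxidative fibres, was at 23.6, 42.4, 88.3 and 42.0 FPKM in K320E-skm, against 37.4, 23.9, 47.2 and 51.6 FPKM in wild-type libraries. Both overlapped, and K320E-skm 3 had the lowest Ldha and the highest Ldhb of all 8 libraries. K320E-skm 3 also had the highest sum of slow fibre markers, 161 FPKM, where the other K320E-skm libraries had 47.9 to 98.3 and wild-type libraries 38.7 to 89.5 FPKM. The part of slow fibres in its Ldhb level was not tested. Gpd1, the cytosolic glycerol 3-phosphate dehydrogenase that hands electrons from NADH to mitochondria (ENSMUSG00000023019, chromosome 15, 99717515 to 99725005), stood at 82.6, 64.0, 62.3 and 74.5 FPKM in K320E-skm, against 115, 78.2, 89.2 and 106 FPKM in wild-type libraries. K320E-skm 1 lay above wild-type 2, and otherwise the genotypes were apart. On average, K320E-skm libraries had 70.9 ± 9.53 FPKM and wild-type libraries 96.9 ± 16.4 FPKM (SD, n = 4 each, exact two-sided permutation p = 0.0571), with a log2 fold change of −0.44 (SE 0.15) and −0.30 relative to the median gene (limma adjusted p = 0.337). After rescaling the unadjusted limma p was 0.0975.

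The 3 genes of glycogen breakdown had log2 fold changes below the median gene. Pygm, the muscle glycogen phosphorylase that releases glucose 1-phosphate, had 895, 657, 649 and 722 FPKM in K320E-skm 1 to 4, against 1070, 838, 888 and 917 FPKM in wild-type 1 to 4. Of the K320E-skm libraries, K320E-skm 1 alone reached into the wild-type range (log2 fold change −0.35, SE 0.16, limma adjusted p = 0.38). Phka1, the muscle regulatory subunit of phosphorylase kinase, had a mean of 66.0 ± 8.33 FPKM in the K320E-skm group, against 78.9 ± 8.27 FPKM in the wild-type group, with overlap. Phkg1, the catalytic subunit of the same kinase in muscle (ENSMUSG00000025537, chromosome 5, 129863421 to 129898549), stood at 76.8, 79.6, 78.9 and 89.2 FPKM in K320E-skm, against 128, 118, 90.6 and 95.9 FPKM in wild-type libraries. All K320E-skm libraries lay below all wild-type libraries, with K320E-skm 4 and wild-type 3 nearly meeting. The K320E-skm mean was 81.1 ± 5.52 FPKM and the wild-type mean 108 ± 17.9 FPKM (SD, n = 4 each, exact two-sided permutation p = 0.0286), with a log2 fold change of −0.40 (SE 0.15) and −0.26 relative to the median gene (limma adjusted p = 0.348). After rescaling Phkg1 overlapped (exact p = 0.0571). Its locus overlaps 4 other annotated genes, 2 of them on the same strand, so its fragments may be shared. The 250 bases before its RefSeq start (chr5:129879089-129879338, minus strand, GRCm38.p6) are shown because it was lower without overlap as deposited. They held 5 matches to CANNTG, 2 of them overlapping each other, and 0 to ACGTG or GCGTG. All of this stretch lies within the locus as annotated in GENCODE M21, which begins on the minus strand at 129898549.
Phkg1: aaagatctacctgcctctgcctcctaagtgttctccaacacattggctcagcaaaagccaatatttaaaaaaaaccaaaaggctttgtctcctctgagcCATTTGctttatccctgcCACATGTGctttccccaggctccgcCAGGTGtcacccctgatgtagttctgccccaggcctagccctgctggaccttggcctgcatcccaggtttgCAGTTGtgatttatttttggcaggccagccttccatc

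Among glycogen synthesis genes, Gbe1 and Ppp1r3a lay on opposite sides of the median gene. Gbe1, the branching enzyme that adds side chains to glycogen (ENSMUSG00000022707, chromosome 16, 70313949 to 70569716), stood at 23.5, 38.3, 30.2 and 33.3 FPKM in K320E-skm 1 to 4, against 19.3, 23.4, 18.5 and 26.5 FPKM in wild-type 1 to 4. K320E-skm 1 lay below wild-type 4 and just above wild-type 2, and the other 3 K320E-skm values exceeded every wild-type value. On average, K320E-skm libraries had 31.3 ± 6.18 FPKM and wild-type libraries 21.9 ± 3.73 FPKM (SD, n = 4 each, exact two-sided permutation p = 0.0571), a ratio of 1.43 as deposited and 1.59 after rescaling. The log2 fold change was 0.49 (SE 0.15), or 0.63 relative to the median gene (limma adjusted p = 0.31), and it was the lowest unadjusted limma p of the 34 after rescaling, at 0.00143 with an adjusted p of 0.273. Among libraries with Y-linked transcripts, K320E-skm 1 at 23.5 FPKM lay above wild-type 1 and 3 at 19.3 and 18.5 FPKM. Among libraries with Xist, K320E-skm 2 to 4 at 30.2 to 38.3 FPKM lay above wild-type 2 and 4 at 23.4 and 26.5 FPKM. This split by transcripts was not planned and was not tested. In it K320E-skm 1 stands alone for its genotype, and the share of all genes that separate in the same way was not counted. Without K320E-skm 4 the log2 fold change was 0.38.

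Ppp1r3a, the muscle subunit that anchors protein phosphatase 1 to glycogen (ENSMUSG00000042717, chromosome 6, 14713977 to 14755274), stood at 57.0, 56.4, 52.9 and 60.9 FPKM in K320E-skm, against 84.7, 72.8, 71.1 and 78.1 FPKM in wild-type libraries. The K320E-skm values lay close together and below all wild-type values, as deposited and after rescaling. The K320E-skm mean was 56.8 ± 3.30 FPKM and the wild-type mean 76.7 ± 6.16 FPKM (SD, n = 4 each, exact two-sided permutation p = 0.0286), a ratio of 0.74 as deposited and 0.84 after rescaling. The log2 fold change was −0.43 (SE 0.12), or −0.28 relative to the median gene (limma adjusted p = 0.31), and −0.45 without K320E-skm 4. Ppp1r3c, a related targeting subunit, was at 128, 93.2, 117 and 88.6 FPKM in K320E-skm, against 103, 86.1, 107 and 127 FPKM in wild-type libraries, with full overlap. The 250 bases before the starts of Gbe1 (chr16:70313699-70313948, plus strand) and Ppp1r3a (chr6:14755275-14755524, minus strand; both GRCm38.p6) are shown because these genes of 1 pathway lay on opposite sides. The Gbe1 stretch held 2 matches to CANNTG and 9 CG pairs, and the Ppp1r3a stretch 4 matches to CANNTG and 1 CG pair.
Gbe1: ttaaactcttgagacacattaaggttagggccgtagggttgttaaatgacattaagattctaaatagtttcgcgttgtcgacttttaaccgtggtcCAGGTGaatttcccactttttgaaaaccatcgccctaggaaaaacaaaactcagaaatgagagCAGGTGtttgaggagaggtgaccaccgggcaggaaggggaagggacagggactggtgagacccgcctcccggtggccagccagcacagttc
Ppp1r3a: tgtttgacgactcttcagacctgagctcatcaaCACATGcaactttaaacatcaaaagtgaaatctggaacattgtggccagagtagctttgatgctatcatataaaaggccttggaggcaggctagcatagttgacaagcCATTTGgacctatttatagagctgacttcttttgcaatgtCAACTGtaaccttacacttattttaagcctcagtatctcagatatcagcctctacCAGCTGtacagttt

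The other synthesis genes overlapped. Ugp2, which makes UDP-glucose, was at 135, 247, 151 and 172 FPKM in K320E-skm, against 156, 148, 138 and 176 FPKM in wild-type libraries, with K320E-skm 2 above the rest. The muscle glycogen synthase Gys1 had a mean of 59.5 ± 12.3 FPKM in the K320E-skm group, against 55.4 ± 5.73 FPKM in the wild-type group. Glycogenin, encoded by Gyg, the primer of glycogen, had a mean of 73.3 ± 6.49 FPKM in the K320E-skm group, against 74.7 ± 7.59 FPKM in the wild-type group (SD, n = 4 each).

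At pyruvate entry, Pdk2, a kinase that switches off pyruvate dehydrogenase (ENSMUSG00000038967, chromosome 11, 95026258 to 95041354), stood at 39.8, 42.7, 48.6 and 46.9 FPKM in K320E-skm, against 56.7, 54.1, 60.8 and 49.7 FPKM in wild-type libraries. All K320E-skm libraries lay below all wild-type libraries as deposited, though K320E-skm 3 and wild-type 4 nearly met. On average, K320E-skm libraries had 44.5 ± 3.99 FPKM and wild-type libraries 55.4 ± 4.65 FPKM (SD, n = 4 each, exact two-sided permutation p = 0.0286). The log2 fold change was −0.31 (SE 0.13, limma adjusted p = 0.368), or −0.17 relative to the median gene, and after rescaling the genotypes overlapped (exact p = 0.371). Pdk1, a kinase of the same family, had a mean of 7.59 ± 1.52 FPKM in the K320E-skm group, against 9.78 ± 1.36 FPKM in the wild-type group, with overlap. Pdha1, the catalytic subunit these kinases act on, was at 106, 151, 127 and 126 FPKM in K320E-skm, against 111, 111, 124 and 127 FPKM in wild-type libraries, also with overlap.

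**Figure D4:**
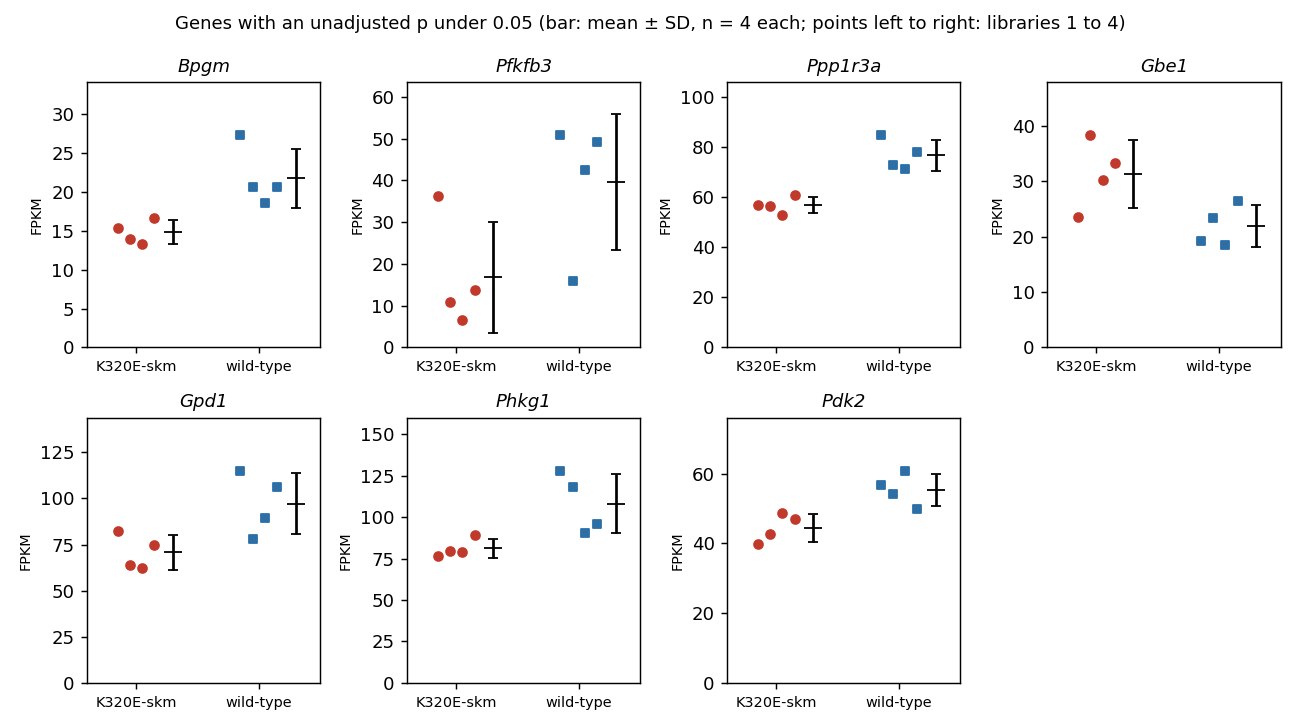
FPKM as deposited are plotted for the 7 genes with an unadjusted limma p under 0.05, with K320E-skm libraries 1 to 4 as red circles at the left of each panel, wild-type libraries 1 to 4 as blue squares at the right, and bars for the mean ± SD (n = 4 each). Bpgm, Ppp1r3a, Phkg1 and Pdk2 do not overlap between the genotypes, Gbe1 is the only panel of the 7 with the higher mean in K320E-skm, and none of the 7 passed the threshold over all genes.

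The use of muscle-enriched and other isoforms was compared within each library, as the log2 ratio of both FPKM values with 1 added to each. The scaling of a library moves this ratio little where both genes are far above 1 FPKM, and more where either is near it. There were 11 pairs, 6 of them made of 2 of the 34 genes, and the muscle-enriched form was the higher of the pair in all 8 libraries for every pair except Pfkfb1 with Pfkfb3. Exact two-sided permutation tests were made for 10 pairs, and 1 had a p under 0.05. Phkg1 over Phkg2, the liver and testis form of the catalytic subunit, had log2 ratios of 4.27, 4.54, 4.75 and 4.98 in K320E-skm, against 5.06, 5.04, 5.49 and 5.35 in wild-type libraries. The K320E-skm ratios lay below all wild-type ratios, with a mean of 4.64 ± 0.30 in the K320E-skm group and 5.24 ± 0.22 in the wild-type group (SD, n = 4 each, exact p = 0.0286, or 0.286 adjusted over the 10 pairs). Phkg2 itself was at 1.85 to 3.03 FPKM in K320E-skm libraries, against 1.04 to 2.89 FPKM in wild-type libraries. These values are low enough for the pseudocount and the scaling of a library to matter. With 0.1 added in place of 1 the ratios overlapped (exact p = 0.0857). The ratios were not computed after rescaling, so the lack of overlap holds for the deposited scale alone.

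Pfkfb1 over Pfkfb3 had log2 ratios of −1.82, 0.62, 1.5 and 0.39 in K320E-skm, against −2.24, −0.06, −1.71 and −1.34 in wild-type libraries. The ratio was above 0 in K320E-skm 2, 3 and 4 and below 0 in the other 5 libraries, with a mean of 0.17 ± 1.41 in the K320E-skm group and −1.34 ± 0.93 in the wild-type group (SD, n = 4 each, exact p = 0.143, adjusted 0.357). Hk2 over Hk1 had a mean of 3.99 ± 0.46 in the K320E-skm group, against 3.52 ± 0.30 in the wild-type group (exact p = 0.143). Pgam2 over Pgam1 had a mean of 7.03 ± 0.21 in the K320E-skm group, against 7.28 ± 0.16 in the wild-type group (exact p = 0.114), and Eno3 over Eno1 had 6.35 ± 0.19 in the K320E-skm group, against 6.46 ± 0.37 in the wild-type group (exact p = 0.686). Ldha over Ldhb had a mean of 3.60 ± 0.94 in the K320E-skm group, against 3.98 ± 0.31 in the wild-type group (exact p = 0.6), with the lowest ratio, 2.30, in K320E-skm 3. The other pairs tested, Slc2a4 with Slc2a1, Pfkm with Pfkl, Pygm with Pygb and Phka1 with Phka2, overlapped with exact p of 0.2 to 0.743. Fbp2 with Fbp1 was given values only, since Fbp1 stayed under 1 FPKM in every library.

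**Figure D5:**
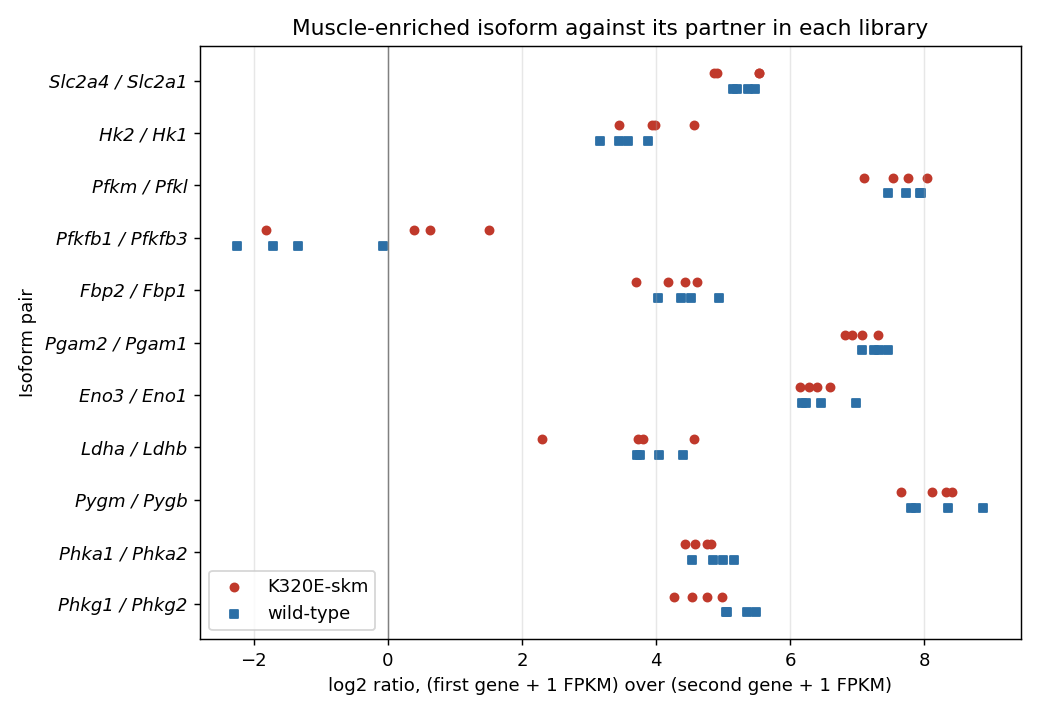
Each row is an isoform pair and each point the log2 ratio of the first gene over the second, with 1 FPKM added to each, in K320E-skm libraries (red circles, above) and wild-type libraries (blue squares, below). Phkg1 / Phkg2 is the only row without overlap, and Pfkfb1 / Pfkfb3 the only row that crosses 0.

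Outside the 34, a list of 62 further genes of glucose and glycogen handling was read from the same fit, and 42 of them passed the expression filter. With limma 0 of 42 passed, and at an unadjusted p under 0.05 2 of the 42 were higher (4.76%, background 1.12%) and 5 lower (11.9%, background 12%). After median-ratio rescaling 4 were higher (9.52%, background 5.09%) and 1 lower (2.38%, background 4.8%). After quantile normalization 4 were higher (9.52%) and 2 lower (4.76%), where 508 and 543 of all 10521 tested genes were. The balance of directions moved with the scaling, in these genes and over all tested genes. Among other glycogen genes, 15 of 22 were tested, with a median log2 fold change of −0.17 beside −0.14 for all genes. Stbd1, which binds glycogen to membranes, had a mean of 22.4 ± 2.60 FPKM in the K320E-skm group, against 14.7 ± 2.27 FPKM in the wild-type group, higher without overlap (n = 4 each, exact two-sided permutation p = 0.0286). Phkb, the shared regulatory subunit of phosphorylase kinase, had a mean of 52.3 ± 5.62 FPKM in the K320E-skm group, against 74.4 ± 9.18 FPKM in the wild-type group, lower without overlap (exact p = 0.0286). Gsk3b, a kinase that restrains glycogen synthase, had a mean of 5.90 ± 0.26 FPKM in the K320E-skm group, against 7.31 ± 0.18 FPKM in the wild-type group, also lower without overlap. Pgm1, a phosphoglucomutase, had a mean of 137 ± 13.8 FPKM in the K320E-skm group, against 178 ± 30.3 FPKM in the wild-type group, and Ppp1cb, a catalytic subunit of protein phosphatase 1, 52.8 ± 8.90 FPKM in the K320E-skm group, against 67.6 ± 8.74 FPKM in the wild-type group, both with overlap. With limma the log2 fold changes were 0.58 for Stbd1, −0.50 for Phkb and −0.27 for Gsk3b (adjusted p 0.309, 0.31 and 0.35). After rescaling they were 0.75, −0.32 and −0.11. Of all tested genes, 9.59% were lower and 0.333% higher without overlap as deposited.

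Of the lactate and pyruvate genes, 14 of 16 were tested, with 7 log2 fold changes above 0 and 7 below as deposited, and 11 above and 3 below after rescaling (list median −0.05 as deposited and 0.11 after rescaling). Pdp1, the phosphatase that switches pyruvate dehydrogenase back on, had a mean of 17.6 ± 3.58 FPKM in the K320E-skm group, against 28.4 ± 8.74 FPKM in the wild-type group (n = 4 each, exact two-sided permutation p = 0.0571). Pdk4, a further kinase of the same complex, had a mean of 107 ± 48.6 FPKM in the K320E-skm group, against 58.2 ± 27.7 FPKM in the wild-type group, with overlap (exact p = 0.143). Of the other glycolysis isoforms and regulators, 8 of 17 were tested. Gpd2, the mitochondrial partner of Gpd1 in the glycerol phosphate shuttle, had a mean of 23.4 ± 3.48 FPKM in the K320E-skm group, against 31.0 ± 2.83 FPKM in the wild-type group. As deposited it was lower without overlap (exact p = 0.0286), with a log2 fold change of −0.40 and a limma adjusted p of 0.337. After rescaling the log2 fold change of Gpd2 was −0.23. Of the other glucose transport genes, 5 of 7 were tested, and as deposited all 5 had log2 fold changes below 0, with a median of −0.21 beside −0.14 for all genes. After rescaling 4 were below 0 and Tbc1d1, a regulator of GLUT4 traffic, was at 0.15, with a list median of −0.10.

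The promoters of the 34 genes were read from RefSeq windows of 300 bases, which held 32 of the 34 genes in 49 windows. The letters ACGTG stood on either strand in 40.8% of these windows, in 17 genes, and in 19.6% of all 32851 windows. GCGTG stood in 44.9% of them and in 32.4% of all windows, and CANNTG in 77.6% of them and 72.3% of all. A loose pattern for MEF2 sites, with the outer letters fixed and any letter allowed in the middle, stood in 6.12% of the windows and in 3.69% of all. The genes with it were Ldhb, Phka1 and Ppp1r3a. In the stretch printed for Ppp1r3a the match reads ctatttatag, with only A and T in the middle. A match to so loose a pattern need not hold the MEF2 core, and the middle letters were not examined for Ldhb and Phka1. Forms with other outer letters were not counted. TATAAA stood in 6.12% of them and 13.6% of all, and TCAGGTT, letters of the MEF3 motif, in 0 of 49 windows and 4.07% of all. The windows of the 34 genes were richer in CG pairs, with a median of 18 per window against 7 over all windows, and ACGTG and GCGTG themselves hold a CG pair.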

How the data were processed

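The authors deposited FPKM per Ensembl gene in 1 table, with 8 libraries as columns. The submitters' processing notes name CASAVA, TopHat2 (2.0.10), Cufflinks (2.1.1) and build mm10. A stranded kit was used, per the labels; the annotation release and strand setting were not given in the sources used here. GENCODE M21 gave a symbol to 47950 IDs. The table holds no counts, so absolute depth is unknown and no counting interval is given; low values gave relative depths of 1 to 1.3. The labels give each sample its own number and sex and do not say more of its origin; p-values cover the spread among these 8 samples.

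The fit used log2(FPKM + 1) and limma (3.58.1, R 4.3.3), with sex label and genotype as terms and a trended prior, on 10521 genes that reached 1 FPKM in 4 or more libraries. K320E-skm 4 was entered as male, by its label and against its transcripts. By transcripts, sex was not balanced between the genotypes, and no fit with sex by transcripts was made. Adjustment was by Benjamini-Hochberg over all of them, with a threshold of 0.05. The pseudocount understates changes of low genes. The fit was tested on simulated data. Exact permutation tests enumerated the 70 assignments of 4 against 4 (SciPy 1.17.1). Among the 34 genes, 17 overlap another annotated gene and 6 of them on the same strand, so their fragments may be shared; Gpd1 and Pdk2 overlap an antisense gene. Alternatives were another pseudocount, other filters, rescaling, quantile normalization, no sex term, a replicate block and leaving out each library.

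Values in every library are given for genes with an unadjusted p under 0.05, the 2 most abundant of each role and both genes of pairs within the 34. Of the other pathway genes, the 8 with the smallest p are named. Members, lists and tests were chosen with earlier results of these data known. Acta1 and Cdh15 were not analysed here, and 1 red cell marker is not reported here.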

Additional observations from a re-analysis of the deposited data

How the results depend on the processing

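None of the 34 genes passed the threshold under any alternative run, though the filter of 5 FPKM left 31 to test, without Hk1, Pgam1 and Slc2a1. Over all genes, 2 passed as reported, 1 with a filter of 5 FPKM, 1 with no filter, 0 with protein-coding genes alone and 1 to 2 with 1 library left out. The median log2 fold change of the 34 was 0.084 after median-ratio rescaling and 0.035 after quantile normalization, and −0.15 to −0.05 with 1 library left out. Median-ratio rescaling reversed the sign of Slc2a4 (0.058), Slc2a1 (0.091), Gpi1 (0.13), Pfkm (0.028), Fbp2 (0.078), Aldoa (0.18), Pgk1 (0.17), Pgam1 (0.14), Eno3 (0.10) and Gyg (0.15). Quantile normalization reversed Slc2a1 (0.10), Gpi1 (0.031), Fbp2 (0.081), Aldoa (0.29), Pgk1 (0.066), Pgam1 (0.14), Eno3 (0.13) and Gyg (0.039). Both move all genes by construction. A pseudocount of 0.1 put Pgam1 at 0.00088 and the Phkg1 over Phkg2 difference at −0.72 (exact p = 0.0857); the cause was not tested.

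With 1 library left out, log2 fold changes that reversed ranged as follows. Aldoa ranged from −0.083 to 0.12, Fbp2 from −0.18 to 0.017, Gpi1 from −0.12 to 0.065 and Slc2a1 from −0.11 to 0.081. Gapdh ranged from −0.14 to 0.25, Pgk1 from −0.10 to 0.10, Pgam1 from −0.094 to 0.10, Eno1 from −0.036 to 0.10 and Eno3 from −0.16 to 0.054. Ldhb ranged from −0.14 to 0.47, Gys1 from −0.023 to 0.22, Gyg from −0.080 to 0.047, Ugp2 from −0.0028 to 0.28 and Ppp1r3c from −0.10 to 0.12. The cause was not tested.

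With the replicate block in place of the sex term, 0 of the 34 and 2 of all genes passed with limma. In that fit 6 of the 34 had an unadjusted limma p under 0.05, where 1412 of all 10521 tested genes did. Same-numbered samples deviated together with r of 0.156, 0.0233, 0.0442 and 0.0395, which is over 0.1 for 1 of 4 numbers, so the numbers were not taken to pair the samples. K320E-skm 1, 2 and 3 each correlated best with the wild-type library of the same number, a hint from the data and not from the design, and K320E-skm 4 correlated best with wild-type 2. Depth is unknown, which limits what can be said of low genes such as Hk1, Slc2a1 and Phkg2.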
